A study of Mus musculus with 18 samples.

Results

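The nuclear-encoded subunits of oxidative phosphorylation were examined in the left ventricle (LV) of mice that had received angiotensin II (AngII). Genes were taken by mouse symbol: the Nduf genes of the A, B, C, S and V series, Sdha to Sdhd, the Uqcr genes, Cyc1, the Cox4 to Cox8 genes and the Atp5 genes. Of 51435 gene identifiers in the count table, 85 protein-coding genes met this rule, with 37 assigned by symbol to complex I, 4 to complex II, 9 to complex III, 18 to complex IV and 17 to complex V. A further 11 genes with such symbols are annotated as pseudogenes or non-coding RNAs and were set aside. Subunits encoded by mitochondrial DNA were removed by the authors before deposit and were not analysed here.

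Both groups consisted of 9 mice on a C57BL/6J background, and each mouse gave 1 LV library of poly(A) RNA. The Wwp2Mut/Mut mice were homozygous for a CRISPR/Cas9 deletion of 4 bp in exon 2 of Wwp2, which encodes a ubiquitin ligase, and the WT mice were littermates without it. The deletion disrupts the full-length and N-terminal isoforms in every cell and leaves the C-terminal isoform. All mice of both groups carried a subcutaneous pump from 8 weeks of age that delivered AngII at 500 ng/kg/min for 28 days, so the comparison was of genotypes under AngII and held no group without it. Whole LV tissue was sequenced, in which fewer cells of a type and less RNA per cell cannot be told apart.

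Complexes I, II, III and IV form the respiratory chain of the inner mitochondrial membrane, which passes electrons from NADH and succinate to oxygen and pumps protons. Complex V, the ATP synthase, makes ATP from the return of these protons. Heart muscle relies on this pathway for most of its ATP, and in cardiac and skeletal muscle several subunits of complex IV are replaced by muscle isoforms.

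The targeted gene followed the labels. Wwp2 ranged from 3.83 to 6.01 TPM (transcript abundance per length and depth) in WT mice and from 1.19 to 3.00 TPM in Wwp2Mut/Mut mice, with no overlap (edgeR, log2 fold change -1.40 ± 0.16 SE, FDR = 0.00113). It was the 1 gene called among 24804 tested, or 0.00403%, and without the 5 mice with high levels of atrial markers, 0 genes were called and Wwp2 had -1.26 (edgeR, FDR = 0.204), with 510 of 24087 genes at an unadjusted p below 0.05. Libraries held 24566994 to 37451087 expected counts. The atrial markers Myl7, Myl4 and Sln together exceeded 10 times their median over mice in WT mice 43-3, 45-1 and 84-2 and in Wwp2Mut/Mut mice 22-3 and 8-2, with 93.1 to 628 TPM against at most 17.1 TPM in the other 13 mice, and liver markers reached 321 TPM in WT mouse 45-1. The RNA concentration, a covariate of the genotype test, is listed as 1.68 ng/µl for WT mouse 43-3 and as 88.6 to 321 ng/µl for the others. All 10 cardiomyocyte markers were detected, with 45050 to 59960 TPM in sum. Brown fat and skeletal muscle also use muscle isoforms of complex IV. In all mice 3 of 7 adipocyte markers, Ucp1 among them, and 5 of 7 skeletal muscle markers, Myh4 among them, were below 1 TPM. Of the others, Adipoq reached 2.21 TPM and Mylpf 2.46 TPM, and Cidea at up to 30.9 TPM and Ckm, also a heart muscle gene, at 1720 to 2429 TPM made up most of each list.

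The subunits took up a large share of the LV transcriptome. Their summed level was lowest at 65338, median 79841 and highest at 94166 TPM in WT mice, and 59454, 83973 and 90682 TPM in Wwp2Mut/Mut mice. In percent of all TPM deposited for a mouse, this was 8.85 to 11.7%. The means were 81401 ± 9236 TPM (SD, n = 9) in WT and 78677 ± 12223 TPM (SD, n = 9) in Wwp2Mut/Mut mice, a difference far smaller than the spread within either genotype. Complex V held most, with a mean of 25285 TPM over the 18 mice, followed by complex IV with 21602 TPM, complex I with 21344 TPM and complex III with 10169 TPM. The 4 subunits of complex II summed to 1638 TPM. The genotypes overlapped in the summed level of every complex, and they overlapped in the TPM of each of the 84 genes detected, as they did for nearly all genes, since 0.00403% of those tested did not overlap.

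**Figure D1:**
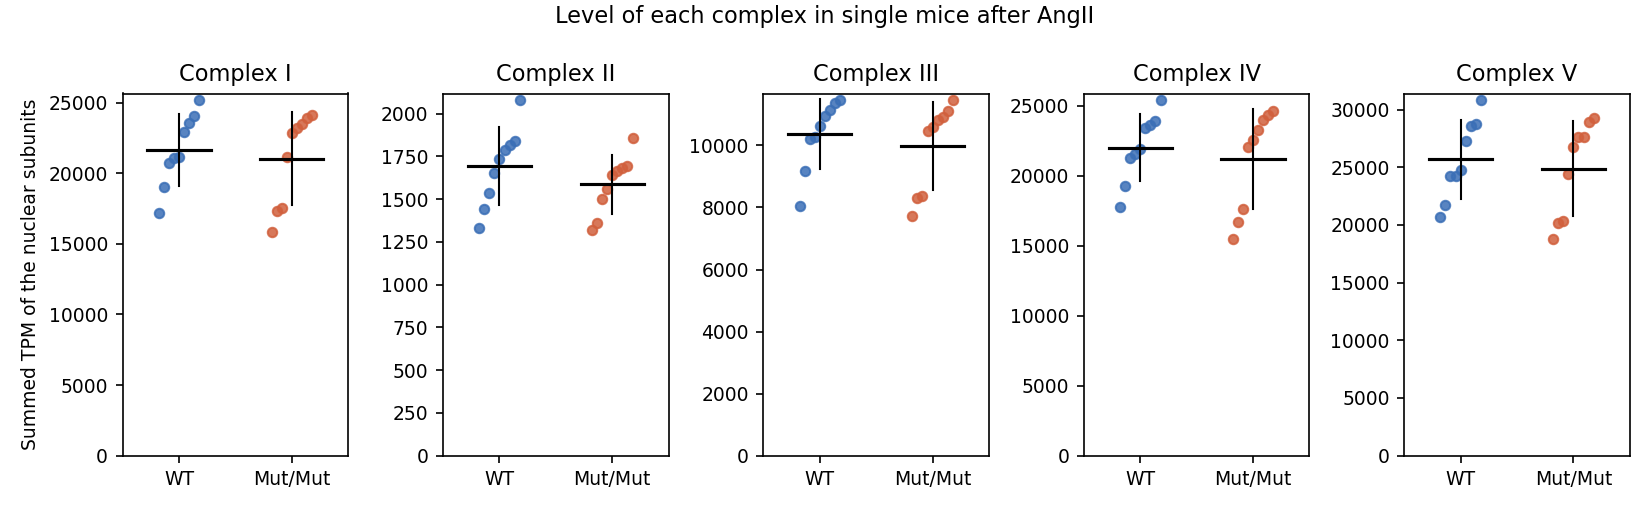
Summed TPM of the nuclear subunits of each complex (vertical axes, each starting at 0) in WT (blue) and Wwp2Mut/Mut (orange) mice, sorted by level, with 1 point per mouse; horizontal bars are means and vertical bars ± 1 SD (n = 9 per genotype). The genotypes overlap in all 5 panels; the lowest level in complexes I, III, IV and V was that of Wwp2Mut/Mut mouse 33-1.

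No subunit was called between genotypes. Of the 84 genes tested in edgeR with RNA concentration and lane as covariates, 0 passed an FDR below 0.05, DESeq2 and limma called 0 as well, and 1 had an unadjusted p below 0.05, compared with 3.66% of all genes. The edgeR FDR was 1 for each of the 84, and estimates below are log2 fold changes ± SE. Cox8c, a testis isoform, was listed at 0 in every mouse and was not tested. The estimates leaned to one side on the count scale: 80 of 84 subunits had a positive log2 fold change in Wwp2Mut/Mut mice, compared with 48.1% of all genes, with a median of 0.19 against -0.01 over all genes. On the TPM scale, limma on log2(TPM + 1) with the same covariates gave 52 positive values and a median of 0.02, while 6481 of 24804 genes were positive and the median of all genes was -0.04. Without covariates, the mean TPM was lower in Wwp2Mut/Mut than in WT mice for 74 of the 84 genes, compared with 75.4% of all genes. By contrast, edgeR without covariates gave 81 positive values and a median of 0.07, compared with 12735 of 24804 genes and 0.01. With lane alone, 82 were positive with a median of 0.10, compared with 12954 genes and 0.01. With total-count scaling, 72 were positive with a median of 0.11, compared with 8581 genes and -0.09. Without the 5 mice with high atrial markers the edgeR median was 0.04, with 62 positive values. Over all genes in that fit 12438 of 24087 were positive, with a median of 0.01. By complex its medians were 0.05 for complex I, -0.02 for II, 0.02 for III, 0.05 for IV and 0.04 for V.

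**Figure D2:**
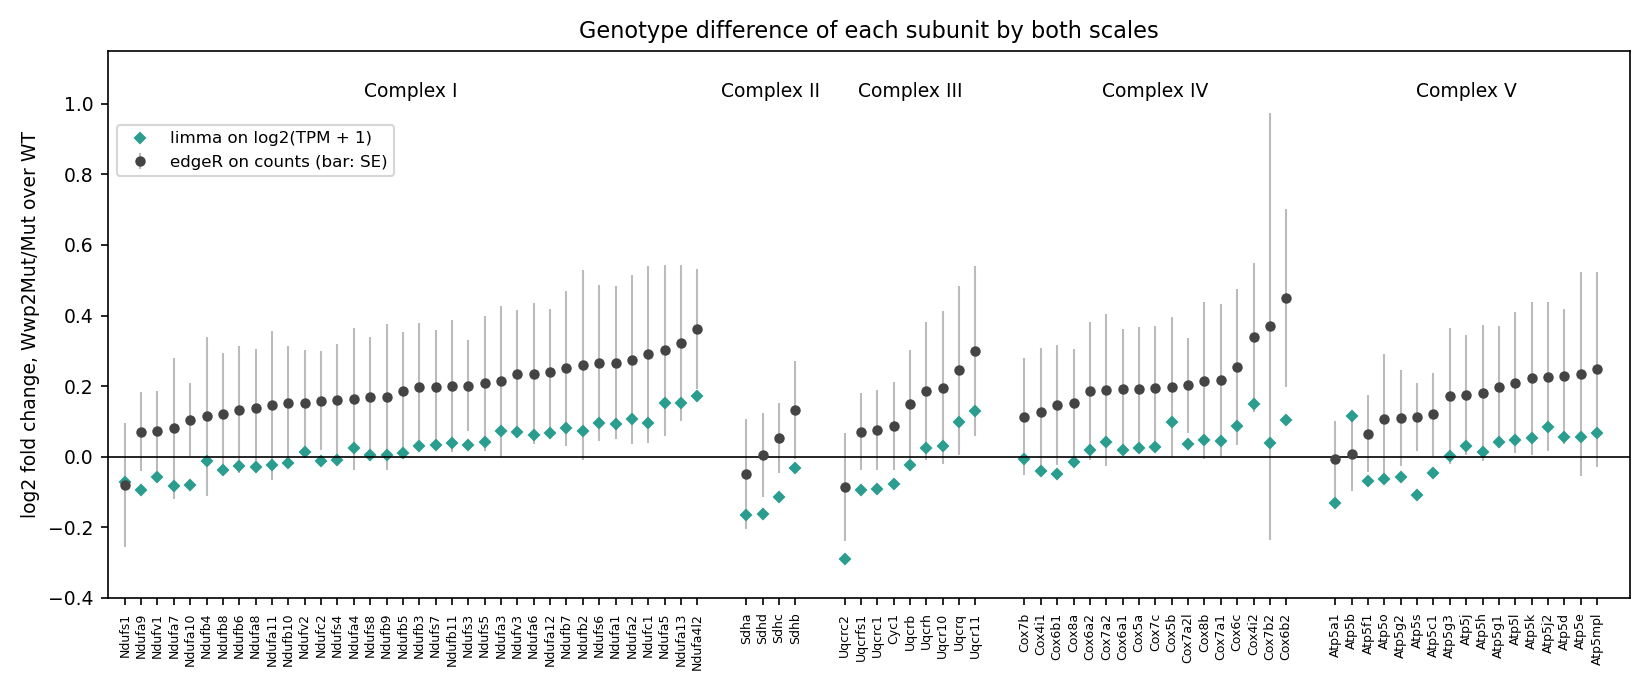
Log2 fold change of the subunits, except 1 that is not reported here, in Wwp2Mut/Mut over WT mice (vertical axis), grouped by complex and sorted within it, from edgeR on the counts (grey circles, bars ± 1 SE) and from limma on log2(TPM + 1) (green diamonds), n = 9 mice per genotype. The circles lie above 0 for all but Uqcrc2, Ndufs1, Sdha and Atp5a1, whereas the diamonds lie on both sides of 0.

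The lanes did not share a direction. Per mouse, the 84 subunits were each set against their own mean, and the median of these deviations was taken in log2 CPM, counts scaled to library size. It was lower in Wwp2Mut/Mut than in WT mice by -0.42 in lane 1 and by -0.06 in lane 4, and higher by 0.35 in lane 2 and by 0.41 in lane 3, with 2 or 3 mice per genotype in each lane. Within a genotype these deviations spread with an SD of 0.32 in WT and 0.35 in Wwp2Mut/Mut mice.

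Complex I takes electrons from NADH. Of its 37 genes, 36 had a positive log2 fold change and the median was 0.19; on the TPM scale 24 were positive and the median was 0.03. Ndufa4l2, a hypoxia-induced relative of Ndufa4, was the 1 gene with an unadjusted p below 0.05. It ranged from 20.1 to 30.4 TPM with a median of 23.8 in WT and from 18.7 to 32.6 TPM with a median of 25.2 in Wwp2Mut/Mut mice. The ranges were nearly the same, and the estimate was 0.36 ± 0.17 (edgeR, FDR = 1). Ndufa4 itself, which was first assigned to complex I and is now regarded as a subunit of complex IV, was the most abundant gene of this group by symbol, with 1578 to 2615 TPM in WT and 1443 to 2642 TPM in Wwp2Mut/Mut mice and an estimate of 0.16 ± 0.20.

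The nuclear core subunits described here, which belong to the conserved catalytic part, were less abundant than Ndufa4. Ndufs1, the largest subunit with several iron-sulfur clusters, had a mean of 193 TPM. Ndufs1 went from 171 to 239 TPM with a median of 190 in WT and from 163 to 225 TPM with a median of 189 in Wwp2Mut/Mut mice. Its estimate was -0.08 ± 0.18, the only negative value of complex I. Ndufs3 ranged from 339 to 401 TPM in WT and from 342 to 444 TPM in Wwp2Mut/Mut mice (0.20 ± 0.13). The estimate was 0.07 ± 0.11 for Ndufv1, which carries the flavin, and 0.20 ± 0.16 for Ndufs7, an iron-sulfur subunit. Among the accessory subunits, Ndufa13 had the next largest estimate, at 0.32 ± 0.22, and 0.15 on the TPM scale. Ndufb4 (58.1 to 153 TPM) is uncertain, because its processed pseudogene Ndufb4c was listed at 484 to 837 TPM and reads may have been divided between them.

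Complex II, the succinate dehydrogenase, also belongs to the citric acid cycle and is encoded in the nucleus alone. Sdha, its flavoprotein, was lowest at 233, median 347 and highest at 437 TPM in WT mice, and 246, 296 and 440 TPM in Wwp2Mut/Mut mice (-0.05 ± 0.16). Sdhb, the iron-sulfur subunit, was the most abundant of the 4, with 655 to 802 TPM in WT and 629 to 787 TPM in Wwp2Mut/Mut mice (0.13 ± 0.14). The membrane anchors Sdhc and Sdhd had estimates of 0.05 ± 0.10 and 0.00 ± 0.12. The median of the complex was 0.03 on the count scale and -0.14 on the TPM scale, where all 4 estimates were negative. On the counts with total-count scaling it was -0.05, with 1 estimate positive and 3 negative.

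Complex III passes electrons from ubiquinol to cytochrome c. Uqcr11, a small accessory subunit, had both the highest mean and the smallest p of the complex. It was lowest at 1372, median 1845 and highest at 2528 TPM in WT mice, and 1318, 2238 and 2550 TPM in Wwp2Mut/Mut mice (0.30 ± 0.24). The catalytic subunits were less abundant, with means of 816 TPM for Cyc1, the cytochrome c1, and 535 TPM for Uqcrfs1, the Rieske protein. Their estimates were 0.09 ± 0.13 and 0.07 ± 0.11. The core proteins differed in sign, with 0.08 ± 0.11 for Uqcrc1 and -0.09 ± 0.15 for Uqcrc2. Uqcrc2 had the widest range of these, from 216 to 633 TPM in WT and from 216 to 497 TPM in Wwp2Mut/Mut mice, and its estimate on the TPM scale was -0.29.

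Complex IV, cytochrome c oxidase, hands electrons to oxygen, and its muscle isoforms Cox6a2, Cox7a1 and Cox8b were among its most abundant genes. All 3 lie on chromosome 7, Cox6a2 at chr7:128205435-128206387, Cox7a1 at chr7:30184144-30186078 and Cox8b at chr7:140898945-140900446 (GRCm38). Cox7a1 ranged from 2361 to 3816 TPM with a median of 3149 in WT and from 2139 to 3821 TPM with a median of 3357 in Wwp2Mut/Mut mice (0.22 ± 0.22). Cox6a2 ranged from 2635 to 3509 TPM with a median of 2798 in WT and from 1954 to 3461 TPM with a median of 2937 in Wwp2Mut/Mut mice (0.19 ± 0.19). Cox8b ranged from 1750 to 2852 TPM with a median of 2399 in WT and from 1502 to 2757 TPM with a median of 2568 in Wwp2Mut/Mut mice (0.22 ± 0.22). In all 3 the lowest WT mouse was 45-1, and the ranges of the genotypes overlapped over most of their length.

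Each muscle isoform outweighed its ubiquitous partner in every mouse. Cox6a2 made up 92.1 to 94.6% of the summed TPM of Cox6a2 and Cox6a1, Cox7a1 79.4 to 83.1% of Cox7a1 and Cox7a2, and Cox8b at least 84.3%, with a median of 87.4%, of Cox8b and Cox8a. Cox4i2, a lung and hypoxia-responsive isoform, made up only 0.455 to 0.786% of the sum with Cox4i1. The ratio of Cox6a2 to Cox6a1 was 11.7 to 17.6 in WT and 12.8 to 17.4 in Wwp2Mut/Mut mice, and the mean log2 ratio differed by 0.01 ± 0.09 (SE). This gave p = 0.915 in a two-sided exact permutation test over all 48620 divisions of the mice, and 0.947 after Benjamini-Hochberg adjustment over the 4 pairs. The ratio of Cox7a1 to Cox7a2 was 3.85 to 4.93 in WT and 4.01 to 4.88 in Wwp2Mut/Mut mice (difference of log2 ratios -0.00 ± 0.05, exact permutation p = 0.947, adjusted 0.947). The ratio of Cox8b to Cox8a was 6.18 to 9.00 in WT and 5.38 to 8.37 in Wwp2Mut/Mut mice (0.01 ± 0.09, exact permutation p = 0.932, adjusted 0.947). The ratio of Cox4i2 to Cox4i1 was 0.00457 to 0.00783 in WT and 0.00568 to 0.00792 in Wwp2Mut/Mut mice (0.13 ± 0.10, exact permutation p = 0.190, adjusted 0.759). Each library has a gene body coverage value, whose definition is not stated. Over the 18 mice the ratios had a Spearman rho with it of 0.48 for Cox6a2, -0.54 for Cox7a1, 0.79 for Cox8b and 0.42 for Cox4i2 over their partners. The first 3 differences were smaller than their SE, and no ratio differed beyond the spread between mice.

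**Figure D3:**
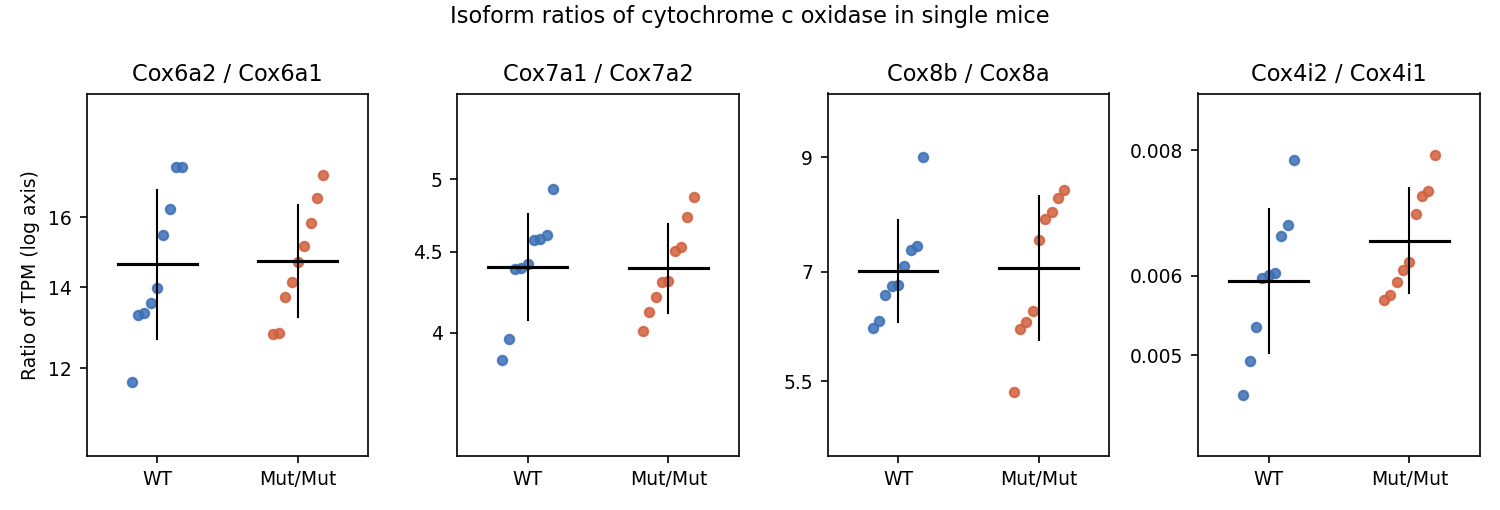
Ratio of the TPM of each isoform pair of complex IV (vertical log axes) in WT (blue) and Wwp2Mut/Mut (orange) mice, sorted by ratio, 1 point per mouse; horizontal bars are means and vertical bars ± 1 SD of the log2 ratios (n = 9 per genotype). The means nearly coincide in the first 3 pairs, and the genotypes overlap in all 4.

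To show the promoters of these isoforms, below are the 250 bases before the RefSeq start of the muscle isoforms Cox7a1 and Cox8b and of the ubiquitous partners Cox7a2, Cox8a and Cox6a1, 5′ to 3′ on the strand of the gene (GRCm38.p6). Cox6a2 had no entry. Capitals mark matches, on either strand, to the NRF1 motif GCGCNTGCG and the ETS motif CCGGAAG.
Cox7a1: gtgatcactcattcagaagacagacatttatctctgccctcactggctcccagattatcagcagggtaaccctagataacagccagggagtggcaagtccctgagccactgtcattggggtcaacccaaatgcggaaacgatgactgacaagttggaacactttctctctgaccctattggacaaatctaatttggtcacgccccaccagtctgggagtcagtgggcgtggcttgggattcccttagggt
Cox8b: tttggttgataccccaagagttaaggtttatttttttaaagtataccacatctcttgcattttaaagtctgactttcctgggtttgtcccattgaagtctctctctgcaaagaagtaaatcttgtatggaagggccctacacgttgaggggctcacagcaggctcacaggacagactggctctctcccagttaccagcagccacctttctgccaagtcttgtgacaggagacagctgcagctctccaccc
Cox7a2: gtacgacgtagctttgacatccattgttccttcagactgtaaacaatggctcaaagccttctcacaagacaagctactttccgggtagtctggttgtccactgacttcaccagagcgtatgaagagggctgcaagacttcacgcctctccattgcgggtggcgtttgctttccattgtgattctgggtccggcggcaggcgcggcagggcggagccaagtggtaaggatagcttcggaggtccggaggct
Cox8a: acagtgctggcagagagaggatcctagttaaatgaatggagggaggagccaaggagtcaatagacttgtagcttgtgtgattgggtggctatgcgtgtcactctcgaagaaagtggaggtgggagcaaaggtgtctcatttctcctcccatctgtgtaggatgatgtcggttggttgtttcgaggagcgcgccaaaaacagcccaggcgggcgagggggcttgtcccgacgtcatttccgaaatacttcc
Cox6a1: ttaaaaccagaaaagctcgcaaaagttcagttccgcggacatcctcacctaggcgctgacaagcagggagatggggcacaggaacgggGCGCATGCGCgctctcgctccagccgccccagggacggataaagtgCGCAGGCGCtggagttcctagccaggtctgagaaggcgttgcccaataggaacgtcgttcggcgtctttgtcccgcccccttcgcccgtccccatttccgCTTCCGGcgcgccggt
The windows are Cox7a1 at chr7:30183921-30184170 (plus strand), Cox8b at chr7:140900447-140900696, Cox7a2 at chr9:79759854-79760103, Cox8a at chr19:7217617-7217866 and Cox6a1 at chr5:115348959-115349208 (minus strand). Cox7a1 and Cox8b held 4 and 1 CpG dinucleotides at a GC content of 51.2 and 47.2%, and Cox7a2, Cox8a and Cox6a1 held 14, 11 and 26 at 54.8, 52.8 and 62.8%. Of these 5 windows, only that of Cox6a1 matched a motif, with 3 NRF1 matches, 2 of them overlapping, and 1 ETS match. Among all 32851 promoters in RefSeq 5.19% held the NRF1 motif and 6.91% the ETS motif. Only 66 of the 85 genes had a promoter there, or 77.6%, which is below the 80% needed for a comparison of motif shares over the set, so that comparison is void.

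The remaining subunits of complex IV gave similar estimates. Cox4i1, the ubiquitous isoform of subunit 4, was lowest at 2317, median 2723 and highest at 3000 TPM in WT mice, and 1982, 2660 and 3021 TPM in Wwp2Mut/Mut mice (0.13 ± 0.18). The larger estimates belonged to genes of low level. Cox4i2 ranged from 13.2 to 21.3 TPM in WT and from 11.7 to 23.9 TPM in Wwp2Mut/Mut mice (0.34 ± 0.21). Cox6b2, a testis isoform of subunit 6B, ranged from 1.51 to 3.99 TPM in WT and from 1.79 to 4.72 TPM in Wwp2Mut/Mut mice and rested on 22 to 75 counts per mouse (0.45 ± 0.25). Cox6b1, its ubiquitous partner, had a mean of 1589 TPM and an estimate of 0.15 ± 0.17. Cox7a2l had 0.20 ± 0.14. All 17 genes of complex IV that were tested were positive on the count scale and 13 on the TPM scale.

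Complex V held the most abundant subunit, Atp5b, the catalytic beta subunit. It was lowest at 2959, median 3847 and highest at 6909 TPM in WT mice, and 3124, 4756 and 6428 TPM in Wwp2Mut/Mut mice. The medians lay apart but the ranges overlapped almost fully, and the estimate was 0.01 ± 0.11 on the count scale and 0.12 on the TPM scale. Atp5a1, the alpha subunit, went from 1283 to 1723 TPM in WT and from 1224 to 1593 TPM in Wwp2Mut/Mut mice (-0.01 ± 0.11). The gamma subunit Atp5c1, which forms the central shaft, had 0.12 ± 0.12, and Atp5d, the delta subunit of that shaft, had the smallest p of the complex (0.23 ± 0.19).

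Subunit c, which forms the rotor ring, is encoded by 3 genes whose mature proteins are the same. Atp5g1 made up 46.5 to 53.7% of their summed TPM, Atp5g3 38.7 to 47.6% and Atp5g2 5.97 to 8.82%. The sum of the 3 was lowest at 4078, median 5469 and highest at 6070 TPM in WT mice, and 3888, 5412 and 5854 TPM in Wwp2Mut/Mut mice. Their estimates were 0.20 ± 0.17, 0.17 ± 0.19 and 0.11 ± 0.14. The median of the complex was 0.17 on the count scale, with 16 of 17 positive, and 0.03 on the TPM scale, with 11 positive.

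Most subunits rose and fell together from mouse to mouse, whatever the genotype. With the genotype means removed, the median Pearson r over all 3486 pairs of subunits was 0.91 on the log2 CPM scale over the 18 mice, and 0.68 on log2(TPM + 1). All genes of a mouse come from 1 library, and pairs of other genes were not compared, so the values are a description. The genes of complex II were divided: r with the mean of the other subunits was 0.98 for Sdhb, 0.07 for Sdhd, -0.03 for Sdhc and -0.81 for Sdha. Sdha had the lowest value of all subunits, followed by Ndufs1 (-0.75), Uqcrc2 (-0.55) and Atp5a1 (-0.44), which were the same 4 genes that had a negative log2 fold change between genotypes. WT mouse 16-1 was highest, with a median deviation of 0.51 in log2 CPM, and WT mouse 45-1 lowest, at -0.52.

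This shared variation moved with a value given for each library and with marker levels. The authors list a gene body coverage value for each library under the header genebody_bottomhalf, without a definition. It ran from 0.0288 in WT mouse 43-3 to 0.0540 in WT mouse 16-1. The summed TPM of the subunits had a Spearman rho of 0.78 with it over the 18 mice, and that of complex II -0.85. The share of TPM missing after the removal of mitochondrial and rRNA genes, 17.4 to 32.8% of the nominal total, had a rho of -0.84 with the summed TPM, of which part is arithmetic because the TPM of a mouse share a total. The summed level of the cardiomyocyte markers had a rho of 0.54 with the summed TPM of the subunits (Pearson r 0.75), and that of the erythrocyte markers 0.53 (Pearson r 0.50), and the part of either in the variation was not tested. WT mouse 45-1, which carried the most atrial and liver markers, lay far below the other mice of similar coverage.

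**Figure D4:**
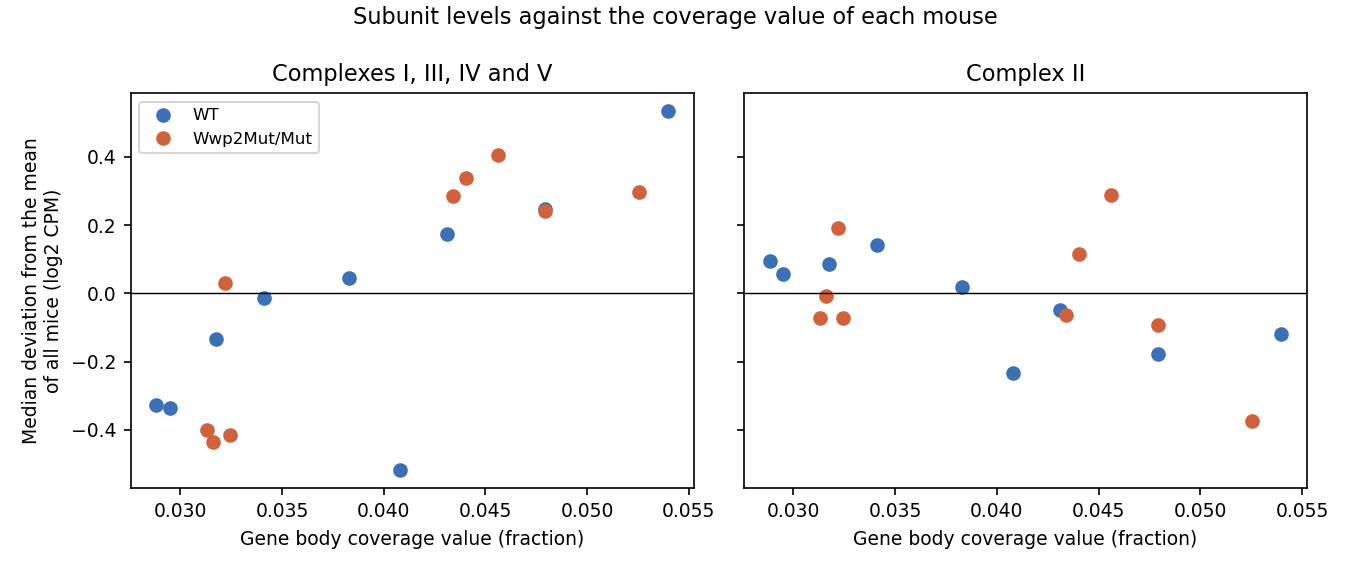
Median deviation in log2 CPM of the subunits from their 18-mouse means (vertical axis) against the gene body coverage value of the library (horizontal axis). Complexes I, III, IV and V are on the left and complex II on the right, 1 point per mouse, WT in blue and Wwp2Mut/Mut in orange. The left panel rises from about the lowest to the highest coverage with WT mouse 45-1 far below, the right panel does not, and both genotypes spread over the whole range.

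In an edgeR fit with genotype, RNA concentration, lane and the coverage value, 68 of 84 subunits were higher at higher coverage (FDR below 0.05), compared with 14.8% of all genes, and 3 were lower, compared with 16.1% of all genes. The 3 lower ones were Ndufs1, which fell by 0.39 ± 0.05 on the log2 scale per 0.01 of coverage (FDR = 1.36e-05), Sdha (-0.31 ± 0.06, FDR = 0.000282) and Uqcrc2 (-0.30 ± 0.05, FDR = 0.000257). The steepest rises were those of Atp5mpl (0.65 ± 0.09) and Atp5e (0.63 ± 0.11), small subunits of complex V, and Ndufb2 (0.62 ± 0.10). In complex II, Sdhb rose by 0.23 ± 0.06 (FDR = 0.00570). Cox6a2, Cox7a1 and Cox8b rose by 0.43 ± 0.07, 0.45 ± 0.09 and 0.48 ± 0.08. With limma on log2(TPM + 1), 47 were higher, compared with 5.31% of all genes, and 10 were lower, compared with 26.8% of all genes.

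The slope on coverage followed transcript length. Lengths weighted by expression were derived from the ratio of deposited counts to TPM and ran from 362 bases for Cox8b to 2859 bases for Sdha, with a median of 682 bases, compared with 2300 bases over the 11336 genes with a mean of at least 1 TPM. Of the 60 subunits under 1000 bases, 58 were higher with coverage, 0 were lower and the median slope was 0.41. Of the 24 longer ones, 10 were higher, 3 were lower and the median slope was 0.11. Spearman's rho between length and slope was -0.73 across the 84 subunits and -0.57 across the 11336 genes, which are not independent replicates. Ndufa13 and Ndufa11 lay off this trend, with slopes of 0.53 and 0.44 at 1253 and 2664 bases. The log2 fold change between genotypes was ordered in the same way, with a rho of -0.69 with length across the subunits and -0.46 across the 11336 genes. All 60 shorter subunits were positive, with a median of 0.20, and 20 of the 24 longer ones were, with a median of 0.08. With the coverage value in the fit the median genotype difference of the 84 subunits was 0.05, with 77 positive, and Ndufa4l2 had 0.23. Over all genes in that fit 12135 of 24804 were positive, with a median of -0.00.

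**Figure D5:**
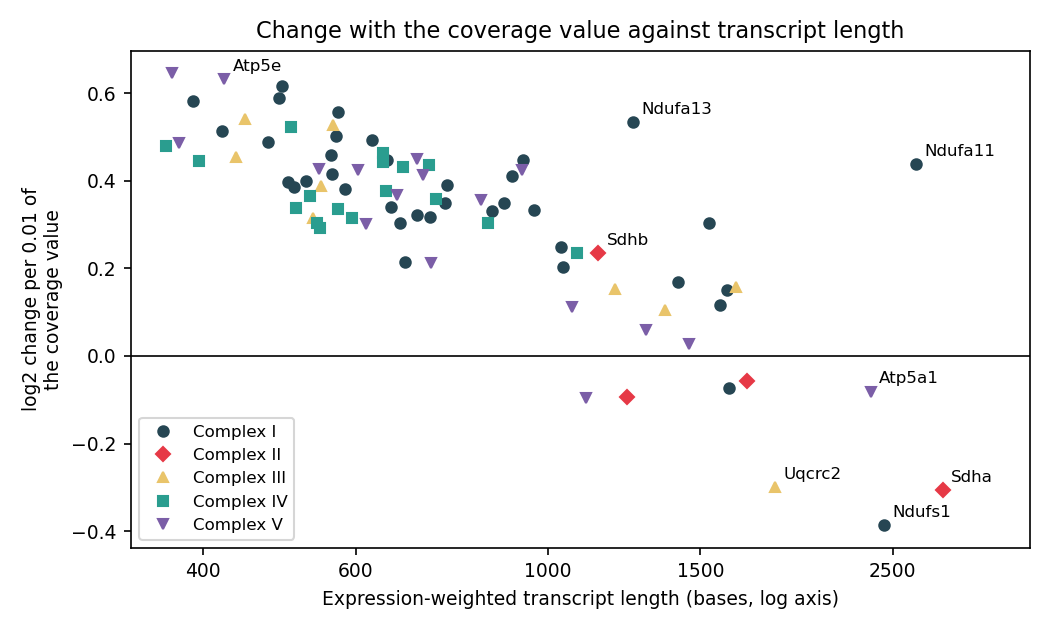
Log2 change per 0.01 of the gene body coverage value (vertical axis) against expression-weighted transcript length in bases (horizontal log axis) for the 84 subunits tested, with a marker per complex. The 60 subunits under 1000 bases lie between 0.21 and 0.65, and the values decline with length to Sdha, Ndufs1 and Uqcrc2 below 0, while Ndufa11 and Ndufa13 lie above the trend.

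In 5 lists of other genes of the pathway, 0 passed an FDR below 0.05 in edgeR, limma or DESeq2, and 0 had an unadjusted p below 0.05 in edgeR with RNA concentration and lane. With the coverage value added, 1 did, the regulator Ppara, whose estimate was 0.49 there and -0.07 without it, compared with 5.37% of all genes in that fit. Of 12 electron carriers and nucleotide exchangers 10 had a positive log2 fold change (median 0.06), of 13 complex I assembly factors 10 (median 0.04), and of 32 tested assembly factors of complexes II to V 18 (median 0.02). Slc25a4, the ADP/ATP carrier of heart, ranged from 2570 to 3337 TPM in WT and from 2616 to 3289 TPM in Wwp2Mut/Mut mice (0.18 ± 0.15), and Vdac3, an outer membrane channel, had 0.11 ± 0.10. Among assembly factors, the smallest p were those of Ndufaf3 (0.18 ± 0.13) and Nubpl (0.09 ± 0.11) for complex I, and of Cox20 (0.21 ± 0.14), a chaperone of a mitochondrially encoded subunit of complex IV, and Uqcc3 (0.27 ± 0.19), a complex III factor. Of 16 regulators of mitochondrial biogenesis 15 were negative (median -0.08), among them Polrmt, the mitochondrial RNA polymerase (-0.15 ± 0.10), and Pprc1, a coactivator of the PGC-1 family (-0.17 ± 0.12). Without the 5 mice with high atrial markers Polrmt had -0.07 and Pprc1 -0.01. Of 14 citric acid cycle genes 6 were positive (median -0.00), with 0.12 ± 0.10 for Mdh2 and 0.10 ± 0.12 for Suclg1. On the TPM scale the positive counts were 2, 1 and 4 for the carriers and the assembly factors of complex I and of complexes II to V, and 0 and 1 for the regulators and the citric acid cycle. These counts also moved with the covariates. With the coverage value in the fit, 10 of 16 regulators were positive (median 0.03) and 12 of 14 citric acid cycle genes (median 0.04), and with lane alone 7 of 16 regulators (median -0.01). Of all 24804 genes 12135 were positive with the coverage value and 12954 with lane alone. With total-count scaling 8581 of 24804 genes were positive, and the lists held 5 positive carriers, 2 complex I assembly factors, 9 assembly factors of complexes II to V, 0 regulators and 2 citric acid cycle genes. Without the 5 mice with high atrial markers the counts were 7, 3, 10, 3 and 3 in the same order, with medians of 0.03, -0.04, -0.06, -0.08 and -0.05. In that fit 12438 of 24087 genes were positive, with a median of 0.01. At an FDR below 0.05 in the edgeR fit with coverage, where 14.8% of all genes were higher and 16.1% lower, 3 carriers were higher and 1 lower, 3 and 2 complex I assembly factors, 10 and 12 assembly factors of complexes II to V, 0 and 12 regulators, and 1 and 9 citric acid cycle genes.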

How the data were processed

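LV poly(A) RNA of 9 WT and 9 Wwp2Mut/Mut mice was sequenced in 4 lanes. The authors aligned reads with STAR 2.5.2b to the m38 genome with Ensembl 89 and deposited RSEM 1.2.31 expected counts and TPM per gene, after removal of mitochondrial and rRNA genes, and per library a gene body coverage fraction, lane and RNA concentration. Of the expected counts 5.11% were not whole, and all were rounded to whole numbers. Genes with a summed count above 1 (24804) were tested with edgeR 4.0.16 (quasi-likelihood, TMM, R 4.3.3), with genotype, centred RNA concentration and lane. P-values were adjusted over all of these genes by Benjamini-Hochberg, and the SE is the log2 fold change divided by the root of F. TPM were tested with limma 3.58.1 on log2(TPM + 1), a scale that understates changes of low genes, and isoform ratios by exact permutation. Mice are separate animals. The fit with the coverage value was added after the data were seen, as was the length limit of 1000 bases. DESeq2 1.42.0, total-count scaling, other filters, pseudocounts and covariates, and fits leaving out each mouse were alternatives. Libraries held 24566994 to 37451087 counts.

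Members and gene lists were chosen with earlier results of these data known. Named genes were Wwp2, the isoform and core subunit genes, and the most abundant gene and the smallest p of each complex. The 5 smallest p among higher subunits, the 4 lower subunits and the 2 smallest p of each pathway list were also named. Other genes were named after their values were seen. Transcript lengths were calibrated on 492 genes with 1 annotated transcript, and the lowest share of them within 10% of the annotated length in any mouse was 97.0%. The scripts were tested on simulated data. Gene identifiers were paired with symbols for 51242 of 51435.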

Additional observations from a re-analysis of the deposited data

Results flagged for a closer look

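In 6 of 114 groups of 9 mice the highest or lowest mouse stood apart from the next by more than Dixon's 95% critical share of the group's range, and chance flags about 1 in 20 groups. The ratio of Cox8b to Cox8a was 9.00 in WT mouse 16-1, against 7.40 in the next. This mouse had the highest gene body coverage value, 0.0540, and over the 18 mice the ratio had a Spearman rho of 0.79 with that value, whose part in the ratio was not tested. Atp5g1, a gene of subunit c, was at 1933 TPM in WT mouse 45-1, against 2573 TPM in the next lowest. Ndufs8, a core subunit of complex I, was at 178 TPM in WT mouse 45-1, against 225 TPM, and the coactivator Pprc1 at 6.34 TPM, against 4.48 TPM in the next highest. WT mouse 45-1 also held the most atrial and liver markers, and their part in these values was not tested. Cox6a1, the ubiquitous partner of Cox6a2, was at 124 TPM in Wwp2Mut/Mut mouse 33-1, against 176 TPM in the next lowest. Wwp2 was at 3.00 TPM in Wwp2Mut/Mut mouse 52-1, against 1.90 TPM in the next, still below all WT mice.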

How the results depend on the processing

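No subunit passed an FDR below 0.05 under any alternative. The number with an unadjusted p below 0.05 was 0, in place of 1, with total-count scaling, the filterByExpr filter, no covariates, lane alone, DESeq2, each limma fit and without the 5 mice with high atrial markers. Leaving out 1 mouse gave 0 to 4, with 4 without WT mouse 16-1 and 3 without Wwp2Mut/Mut mouse 33-1. For fits that left out 1 mouse no share of all genes is given, so their counts only describe the subunits. Positive estimates numbered 52 with limma on log2(TPM + 1), 52 with a pseudocount of 0.1, 51 after rescaling TPM and 51 with a filter at 1 TPM, and leaving out 1 mouse gave 71 to 83. The median, 0.19, ran from 0.09 without WT mouse 45-1 to 0.29 without WT mouse 16-1. By complex, leaving out 1 mouse gave 0.10 to 0.29 for I, -0.06 to 0.09 for II, 0.05 to 0.24 for III, 0.11 to 0.33 for IV and 0.09 to 0.29 for V. The median of complex II was -0.14 in all 4 limma fits. Subunits higher with coverage numbered 61 to 70 when 1 mouse was left out, and those lower numbered 3 throughout, but 8 with total-count scaling and 10 with limma. For the fits without 1 mouse or with total-count scaling, the shares of all genes called were not taken. Those counts therefore cannot be set against all genes. The differences of log2 isoform ratios ran from -0.03 to 0.04 for Cox6a2, -0.03 to 0.02 for Cox7a1, -0.02 to 0.06 for Cox8b and 0.09 to 0.18 for Cox4i2. The cause of these changes was not tested. Without the 5 atrial-marker mice Wwp2 missed the threshold (edgeR, log2 fold change -1.26, FDR = 0.204). Leaving out mice with high liver markers was not run, since none exceeded 10 times the median. No paired analysis was possible because the mouse codes are not shared between genotypes.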

Other observations

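Some genes with subunit symbols that are not annotated as protein-coding were abundant. Ndufb4c, the processed pseudogene, ranged from 529 to 837 TPM in WT and from 484 to 747 TPM in Wwp2Mut/Mut mice, and Ndufb1-ps from 278 to 446 TPM in WT and from 259 to 406 TPM in Wwp2Mut/Mut mice. The genotypes overlapped in both, and edgeR estimates were 0.02 ± 0.18 and 0.10 ± 0.20.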
